A study of Mus musculus with 7 samples.

Results

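The CD300 and TREM receptors are small immunoglobulin-like receptors of myeloid cells, and 9 of their genes were followed here among the 23361 genes of the deposited table: *Cd300a*, *Cd300lf*, *Cd300lb*, *Cd300ld*, *Cd300e*, *Trem1*, *Trem3*, *Treml4* and *Treml2*. They were found by symbol and had been chosen from their levels in these same libraries, so their values are given as a description, with no p. Where the fit over all genes (edgeR) placed a receptor past its threshold, an adjusted p under 0.05, this is stated as part of that description and supports nothing further. All 9 were among the 12858 genes that passed the filter on low counts.

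RNASeq was carried out on macrophages of wild-type BALB/cJ mice, which are inbred, after the left sciatic nerve had been cut and repaired at once within an inert conduit. Cells of the regenerative bridge, the tissue that fills the conduit, were sorted as negative for lineage markers and positive for F4/80, CD14, CD11b and CD16/32. Day 5 after repair is represented by 3 libraries and days 14 and 28 by 2 each, with no library from uninjured nerve analysed here. For the later time points the text of the study gives a larger group size than the labels do. The labels call the libraries independent biological replicates, but whether a library stems from 1 mouse or a pool, and the age of the mice, is not given in the sources used here, so the spread reported is that between these libraries.

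Activating members of both families have a charged residue in the membrane by which they pair with adaptors such as DAP12 (*Tyrobp*) or the Fc receptor gamma chain (*Fcer1g*), whose phosphorylated tyrosine motifs recruit the kinase Syk. Inhibitory members carry their own tyrosine motifs, which recruit phosphatases such as SHP-1 (*Ptpn6*). Many of the ligands known for these receptors are lipids exposed on dying cells, and the balance between the receptors is known to tune inflammatory responses of monocytes, macrophages and neutrophils.

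Libraries held 18027190 to 35247116 fragments assigned to genes, and each fragment is 1 single-end read. Between libraries of 1 time point the counts differed beyond counting noise (chi-square per degree of freedom between 16.4 and 65.9), so none was a copy of another. All 8 macrophage markers in the table, among them *Csf1r*, *Cd68*, *Mertk* and *C1qa*, were above 3 fragments in every library, and their sum was 5375 to 6158 FPKM on day 5, 4970.4 to 6998 on day 14 and 3809.8 to 4652 on day 28. FPKM are fragments per kilobase of transcript scaled to library size, so levels can be compared between genes. From day 5 to day 28, 2 of the 8 macrophage markers fell and 6 were not past the threshold. The 2 were *Emr1* (log2 fold change -1.01, adjusted p = 0.0065, edgeR) and *Mrc1* (-0.73, adjusted p = 0.0347, edgeR). With DESeq2, 5 of the 8 fell past the threshold. In edgeR, 5 were lower at an unadjusted p under 0.05, which 4046 of all 12858 genes tested reached in either direction. Markers of T and NK cells summed to at most 0.695 FPKM in any library, and those of mast cells and basophils to at most 0.874. Those of B cells, mainly *Cd79b*, summed to 4.42 to 10.8 FPKM, and those of eosinophils to 1.68 to 5.69. Dendritic cell markers summed to 8.18 to 13.2 FPKM on day 5, 10.9 to 25.4 on day 14 and 20.3 to 30.6 on day 28. Of these, *Ccr7* rose from day 5 to day 28 (log2 fold change 1.43, adjusted p = 0.04, edgeR), while 0 dendritic cell markers were past the threshold with DESeq2. In these bulk samples fewer cells of a type and less RNA per cell cannot be told apart, and time point and any day of preparation cannot be told apart either.

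The 9 genes lie in 2 clusters of the mouse genome (GRCm38, GENCODE). The CD300 cluster spans 244 kb of chromosome 11. *Cd300a* is on the plus strand at chr11:114890041-114904654, and on the minus strand follow *Cd300lb* at chr11:114922781-114934386, *Cd300ld* at chr11:114982274-114989922, *Cd300e* at chr11:115051917-115062177 and *Cd300lf* at chr11:115116214-115133992. The TREM cluster holds *Trem1* at chr17:48232768-48246924, *Trem3* at chr17:48247777-48258841, *Treml4* at chr17:48264295-48275360 and *Treml2* at chr17:48299498-48312533, all on the plus strand within 79.8 kb. *Trem1* ends 852 bases before *Trem3* begins.

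Paralogs can share reads. Of the stretches of 75 bases, about the length of a read, in the annotated transcripts, 1.79% of those of *Cd300a*, 1.12% of *Cd300lf* and 2.33% of *Cd300ld* also occur in another gene, and 0% of the other 6 receptors. *Cd300lf*, *Cd300lb* and *Trem1* overlap a gene on the opposite strand, with 0 exon bases in common.

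*Cd300lb*, *Cd300e* and *Cd300lf* are shown by their promoters because these 3 members, on the same strand of the CD300 cluster, had the largest fitted differences of the cluster between day 5 and day 28, *Cd300e* and *Cd300lf* lower and *Cd300lb* higher. The sequences are from RefSeq (GRCm38.p6), 5′ to 3′ on the strand of the gene, and end at the annotated start or, for *Cd300lb* and *Cd300e*, 15 and 138 bases before it, where the gene begins in GENCODE. Capitals mark the letters AGGAAG or GAGGAA on either strand, purine-rich hexamers with the GGAA core read by PU.1, a transcription factor of myeloid cells, and other ETS factors. The hexamers overlap each other as GAGGAAG.
Cd300lb, chr11:114934387-114934621, minus strand: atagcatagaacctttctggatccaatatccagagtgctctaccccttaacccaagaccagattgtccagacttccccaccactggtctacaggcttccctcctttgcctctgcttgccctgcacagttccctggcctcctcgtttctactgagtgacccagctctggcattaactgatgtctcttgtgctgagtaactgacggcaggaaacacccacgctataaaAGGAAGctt
Cd300e, chr11:115062178-115062289, minus strand: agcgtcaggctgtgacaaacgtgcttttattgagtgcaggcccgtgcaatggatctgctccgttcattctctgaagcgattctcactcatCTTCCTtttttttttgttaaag
Cd300lf, chr11:115133993-115134242, minus strand: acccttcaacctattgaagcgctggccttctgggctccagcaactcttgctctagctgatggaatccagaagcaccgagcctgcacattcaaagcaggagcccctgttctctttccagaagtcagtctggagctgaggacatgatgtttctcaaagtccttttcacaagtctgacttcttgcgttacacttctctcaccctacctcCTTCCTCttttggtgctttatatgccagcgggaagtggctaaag

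Promoter windows of 250 bases were at hand for 7 of the 9 receptors, those of *Trem3* and *Treml2* not being in the table. AGGAAG, which reads CTTCCT on the other strand, was in 7 of these 7 windows and in 29.5% of 32851 windows in the table. GAGGAA, read as TTCCTC, was in 5 of 7, those of *Cd300a*, *Cd300lf*, *Cd300ld*, *Trem1* and *Treml4*, and in 23.3% of all. The overlapping form was in 3 of 7 and in 10.6% of all. Both hexamers were picked after the receptors' sequences had been seen, and the receptors share ancestry, so these shares describe the letters only.

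Among the inhibitory receptors, *Cd300lf* was 3.41-fold lower in mean FPKM at day 28 than at day 5, whereas *Cd300a* stayed within a narrow band. *Cd300lf* (CLM-1) carries inhibitory tyrosine motifs and binds lipids such as ceramide and phosphatidylserine. Its level was 51.3, 36.4 and 53.2 FPKM in the day 5 libraries, 35.0 and 23.5 at day 14, and 13.8 and 13.7 at day 28. Each library of days 14 and 28 was thus below every library of the earlier time points. The means were 47.0 ± 9.20 FPKM (SD, n = 3), 29.2 ± 8.08 (n = 2) and 13.8 ± 0.102 (n = 2). The fitted log2 fold change was -0.68 (SE 0.20) from day 5 to day 14, -1.08 (SE 0.22) from day 14 to day 28 and -1.75 (SE 0.21) from day 5 to day 28.

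*Cd300a* binds phosphatidylserine and phosphatidylethanolamine on dying cells and also signals through inhibitory motifs. It was at 58.6, 56.6 and 56.2 FPKM at day 5, 70.8 and 60.7 at day 14, and 52.9 and 50.5 at day 28. The day 14 libraries were the highest and the day 28 libraries the lowest, without overlap. The fitted log2 fold change was 0.21 (SE 0.11) from day 5 to day 14 and -0.34 (SE 0.12) from day 14 to day 28, which left -0.13 (SE 0.11) between day 5 and day 28.

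*Cd300lb* (CLM-7), which pairs with DAP12, was the receptor of the 9 with the highest mean level at day 5 and day 28. Its level was 67.0, 64.4 and 61.8 FPKM at day 5, 60.0 and 62.6 at day 14, and 92.4 and 83.9 at day 28. Both day 28 libraries were above all others, while day 5 and day 14 overlapped. The mean was 1.37-fold higher at day 28 (88.2 ± 6.02 FPKM, n = 2) than at day 5 (64.4 ± 2.60, n = 3), and the fitted log2 fold change was 0.47 (SE 0.11). *Cd300lb* was past the threshold at day 28 against day 5, but in only 9 of 15 other settings of the fit, and not without any 1 of the day 5 libraries or without day 28 replicate 1, nor with the replicate number as a block.

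*Cd300ld* (CLM-5), which pairs with the Fc receptor gamma chain, differed little between the time points. The 3 day 5 libraries were at 48.3, 52.7 and 44.0 FPKM, those of day 14 at 37.9 and 48.2, and those of day 28 at 43.0 and 40.6. Days 5 and 14 overlapped, and the fitted log2 fold change from day 5 to day 28 was -0.20, less than that of any other receptor but *Cd300a*.

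*Cd300e* (CLM-2), another receptor that pairs with DAP12 and is known from monocytes, had the largest difference of the 9. It was at 19.2, 14.7 and 18.2 FPKM at day 5, 9.73 and 6.40 at day 14, and 2.57 and 1.04 at day 28. The libraries of the 3 time points did not overlap, and the order was the same as for *Cd300lf*. Mean FPKM was 9.60-fold lower at day 28 (1.81 ± 1.09, n = 2) than at day 5 (17.4 ± 2.38, n = 3), with a fitted log2 fold change of -3.18 (SE 0.35). From day 5 to day 14 it was -1.10 (SE 0.31) and from day 14 to day 28 -2.08 (SE 0.36). At day 28 these values rest on 174 and 35 fragments, against 528 to 818 at day 5, and the log2 fold change between these days was -4.05 without day 28 replicate 1 and -2.74 without day 28 replicate 2.

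**Figure D1:**
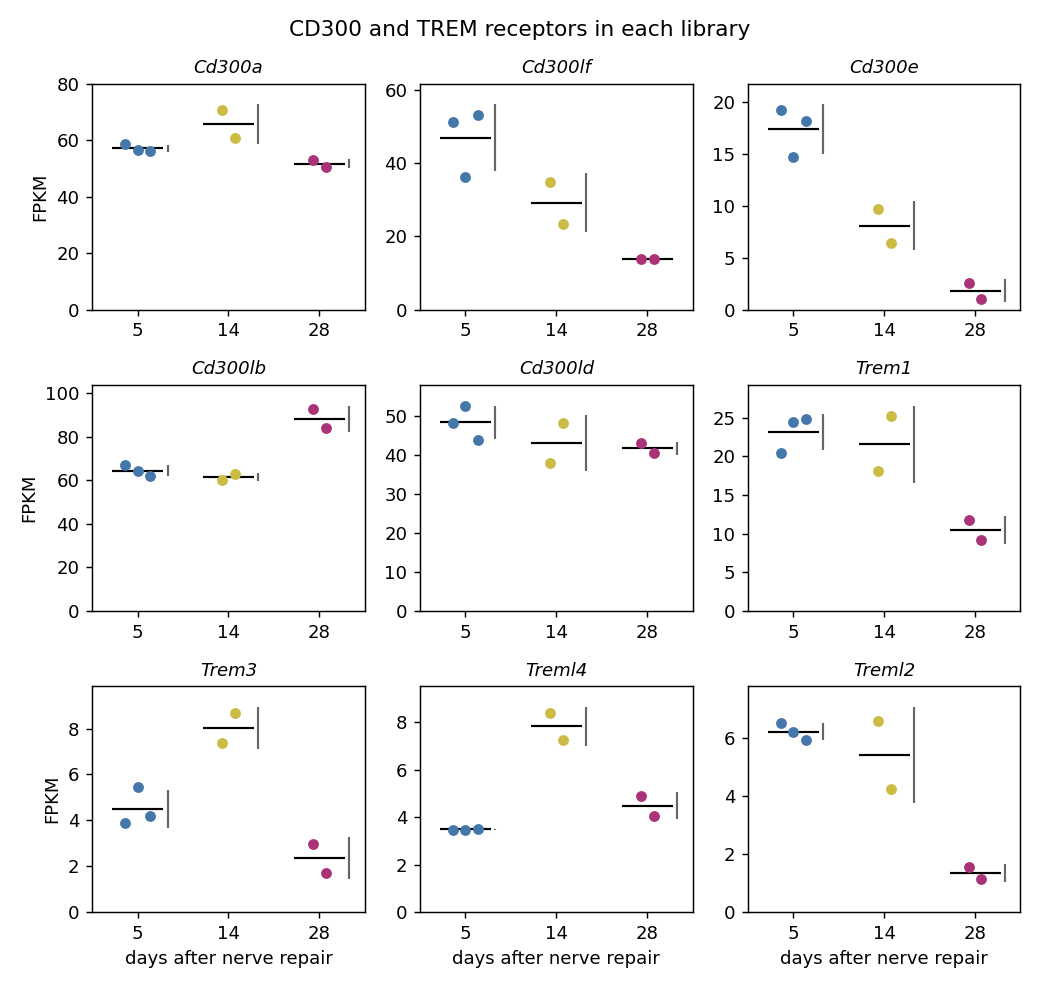
Level of each of the 9 receptors (y axis, FPKM, each panel with its own scale from 0) by days after nerve repair (x axis). Points are single libraries (3 at day 5, 2 each at days 14 and 28), horizontal lines the mean and grey bars beside them 1 SD on either side. *Cd300lf* and *Cd300e* step down at each time point, *Cd300lb* is highest at day 28, and *Trem3* and *Treml4* are highest at day 14.

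*Trem1*, an amplifier of inflammatory signals on monocytes and neutrophils that pairs with DAP12, was lower at day 28 than before. Its level was 20.5, 24.4 and 24.8 FPKM at day 5, 18.1 and 25.2 at day 14, and 11.8 and 9.23 at day 28. The day 5 and day 14 libraries overlapped, and both day 28 libraries were below them. The fitted log2 fold change was -0.09 (SE 0.17) from day 5 to day 14, -1.03 (SE 0.19) from day 14 to day 28 and -1.12 (SE 0.18) from day 5 to day 28, a 2.21-fold lower mean FPKM.

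*Treml2* encodes TLT-2, a relative that does not signal through DAP12. It was at 6.51, 6.18 and 5.93 FPKM at day 5, 6.58 and 4.25 at day 14, and 1.56 and 1.13 at day 28. As for *Trem1*, days 5 and 14 overlapped and day 28 was below both. The mean was 4.61-fold lower at day 28 (1.35 ± 0.302 FPKM, n = 2) than at day 5 (6.20 ± 0.289, n = 3). The fitted log2 fold change was -1.98 (SE 0.23) from day 14 to day 28, the one value of the 9 past the threshold in that comparison, though in only 6 of 15 other settings, and -2.17 (SE 0.22) from day 5 to day 28.

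*Trem3* and *Treml4*, both partners of DAP12, were highest at day 14. *Trem3* was at 3.88, 5.45 and 4.20 FPKM at day 5, 7.37 and 8.68 at day 14, and 2.99 and 1.72 at day 28. *Treml4*, a receptor that binds dead cells, was at 3.47, 3.48 and 3.51 FPKM at day 5, 8.40 and 7.24 at day 14, and 4.90 and 4.07 at day 28. In both genes the time points did not overlap, but the day 28 libraries were below day 5 for *Trem3* and above day 5 for *Treml4*.

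The fitted log2 fold change of *Treml4* was 1.17 (SE 0.19) from day 5 to day 14, -0.79 (SE 0.21) from day 14 to day 28 and 0.38 (SE 0.19) over the whole course. That from day 5 to day 14 was the one receptor value past the threshold there, and it was lost without any 1 of the day 5 libraries, and also when the replicate number entered the fit as a block. For *Trem3* the log2 fold changes were 0.84 (SE 0.30), -1.73 (SE 0.34) and -0.89 (SE 0.32), none past the threshold. *Trem3* had the fewest fragments of the 9, 28 in day 28 replicate 2 (95% Poisson interval 18.6 to 40.5) and at most 165 in any library.

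The summed neutrophil transcripts moved with the day 14 values. The 15 neutrophil markers in the table summed to 398 to 432 FPKM on day 5, 673 to 681 on day 14 and 179 to 325 on day 28, in the same order as *Trem3*. *S100a9* was at 138, 161 and 159 FPKM at day 5, 334 and 295 at day 14, and 137 and 61.4 at day 28. It was the largest part of the sum, followed by *S100a8*. *Csf3r* and *Mmp9*, next in mean level, did not rise from day 5 to day 14 (log2 fold change -0.24 and -0.08). From day 5 to day 28 both fell (-1.09 and -1.69, adjusted p = 0.00581 and 0.00215, edgeR). *Elane*, a gene of neutrophil precursors, was at 0 fragments in every library, and *Ngp*, a gene of neutrophil granules, at 0 in all but 1 day 14 library with 27. Of the 11 neutrophil markers tested, 0 rose past the threshold of the edgeR fit from day 5 to day 14, 7 were higher at an unadjusted p under 0.05 and 4 rose with DESeq2, while *Mmp8*, a neutrophil collagenase, fell (log2 fold change -1.60, adjusted p = 0.0184, edgeR). Their median log2 fold change was 0.83 between days 5 and 14 and -1.25 between days 14 and 28, when 10 were lower at an unadjusted p under 0.05. Of all 12858 genes tested, 3083 and 1570 were at an unadjusted p under 0.05 in these 2 comparisons, in either direction. The sort took out cells stained for Ly6G, a neutrophil surface protein, along with those stained for other lineage markers. In the same libraries the 8 nonclassical monocyte markers summed to 274 to 338 FPKM on day 5, 338 to 419 on day 14 and 263 to 338 on day 28, and 2 of them rose from day 5 to day 14, *Cx3cr1* (log2 fold change 1.92, adjusted p = 0.0189) and *Pglyrp1*, described with the ligands. The 9 markers of Schwann cells, fibroblasts and endothelium summed to 32.1 to 69.4, 60.3 to 169.6 and 25.6 to 42.2 FPKM at the 3 times in turn. The part of RNA from any of these cells in the levels of *Trem3*, *Treml4* and *Trem1* was not tested.

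**Figure D2:**
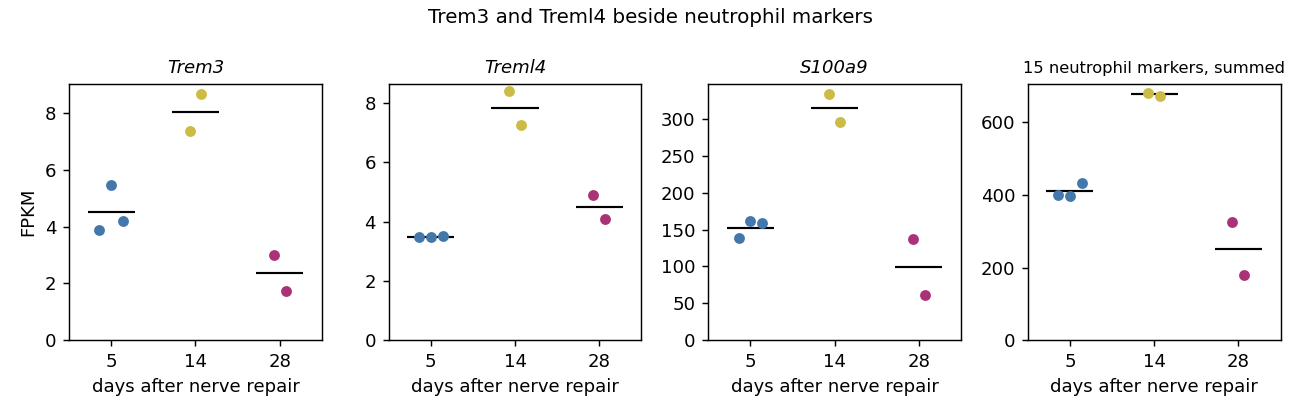
FPKM (y axes, from 0) of *Trem3*, *Treml4*, the neutrophil marker *S100a9* and the sum of 15 neutrophil markers, by days after nerve repair (x axis). Points are single libraries and lines the mean of each time point. All 4 are highest in the 2 day 14 libraries, and *Treml4* alone is higher at day 28 than at day 5.

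Markers of classical monocytes moved with the receptors that were lower late. The 8 markers summed to 615 to 811 FPKM on day 5, 318 to 542 on day 14 and 296 to 355 on day 28. From day 5 to day 28, 5 of them fell, among them *Ly6c2* (log2 fold change -2.90, adjusted p = 0.0206), and *Ccr2*, the receptor by which monocytes leave the bone marrow, rose (0.74, adjusted p = 0.0259). Among the nonclassical monocyte markers, *Cx3cr1* rose (log2 fold change 3.01, adjusted p = 0.00107) and *Fcgr4*, an activating Fc receptor, fell (-1.77, adjusted p = 0.00143). The macrophage markers *Emr1* and *Mrc1*, described above, also fell from day 5 to day 28. The part of monocyte RNA in the levels of *Cd300e*, *Cd300lf*, *Trem1* and *Treml2* was not tested.

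The counts over the 9 are given beside those of all genes tested. At day 14 against day 5, 1 of 9 was past the threshold (*Treml4*, higher), where 4.78% of all genes tested were, and 5 had libraries that did not overlap, 3 higher and 2 lower, where 43.2% of all genes did not. At day 28 against day 14, 1 was past the threshold (*Treml2*, lower; 0.0622% of all genes), and 8 did not overlap, 1 higher and 7 lower (39.0% of all genes). Against day 5, 5 of the day 28 values were past the threshold (15.2% of all genes): *Cd300lb* was higher and *Cd300lf*, *Cd300e*, *Trem1* and *Treml2* were lower. All 9 did not overlap, 2 higher and 7 lower (51.5% of all genes). Since the receptors were chosen on these contrasts, nothing is read from these counts, and the 3 comparisons share libraries.

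The median log2 fold change of the 9 was -0.09 at day 14 against day 5, -1.03 at day 28 against day 14 and -0.89 at day 28 against day 5. Over all genes tested it was 0.03, 0.01 and 0.03.

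**Figure D3:**
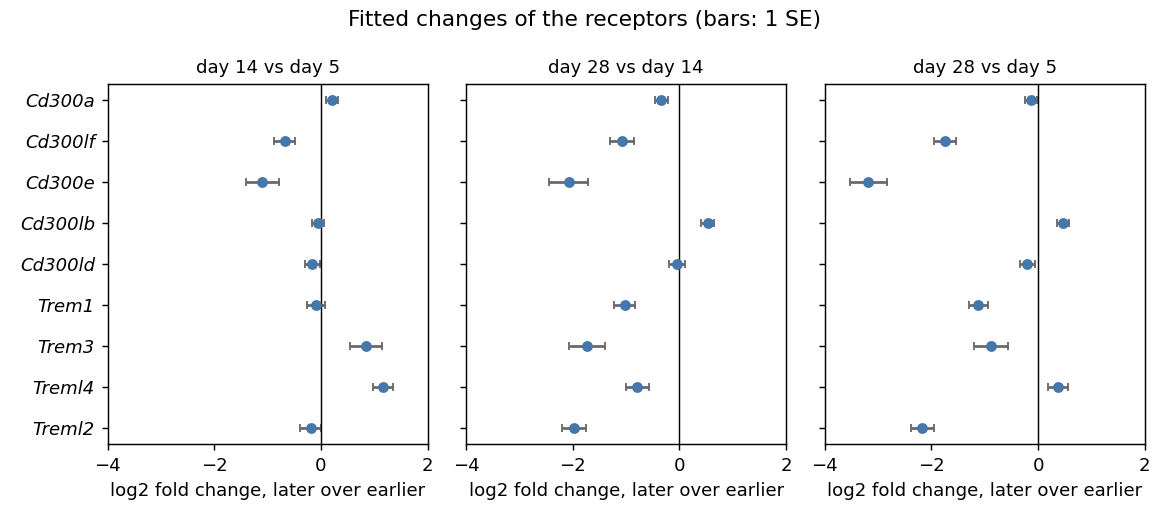
Fitted log2 fold change (x axis, later over earlier time point) of each receptor (rows) in the 3 comparisons, with bars of 1 SE on either side. *Cd300e* reaches -3.18 at day 28 against day 5, *Treml4* is the furthest right at day 14 against day 5 with 1.17, and *Cd300lb* is the one receptor to the right of 0 at day 28 against day 14.

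Because these levels are per length, the make-up of the receptor transcripts can be given. The 9 receptors summed to 279, 264 and 272 FPKM at day 5, 254 and 247 at day 14, and 226 and 206 at day 28. *Cd300lb* made up 24.0%, 24.4% and 22.7% of that sum at day 5, 23.6% and 25.4% at day 14, and 40.9% and 40.7% at day 28. *Cd300lf* went from 13.8 to 19.6% at day 5 to 6.12 and 6.65% at day 28, and *Cd300e* from 5.55 to 6.89% to 1.14 and 0.505%. At day 28 the level of *Cd300lb* itself was the higher, and the sum of the 9 the lower, than in any earlier library.

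The inhibitory pair *Cd300a* and *Cd300lf* held 39.4%, 35.2% and 40.2% of the sum at day 5, 41.6% and 34.1% at day 14, and 29.5% and 31.2% at day 28. The 6 activating receptors held 58.3%, 62.5% and 57.6% at day 5, 55.8% and 64.1% at day 14, and 69.8% and 68.3% at day 28. The day 28 shares lay outside those of the earlier libraries in both groups, while days 5 and 14 overlapped. The 2 groups hold all of the sum but *Treml2*, so a lower share of 1 goes with a higher share of the other. Of the activating receptors, only *Cd300lb* had day 28 shares (40.9% and 40.7%) above those of all earlier libraries. Of the inhibitory pair, *Cd300lf* was below them (6.12% and 6.65%), while *Cd300a*, at 23.4% and 24.5%, was within their range. *Trem2*, described below and at 394 to 537 FPKM, is not part of the sum.

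**Figure D4:**
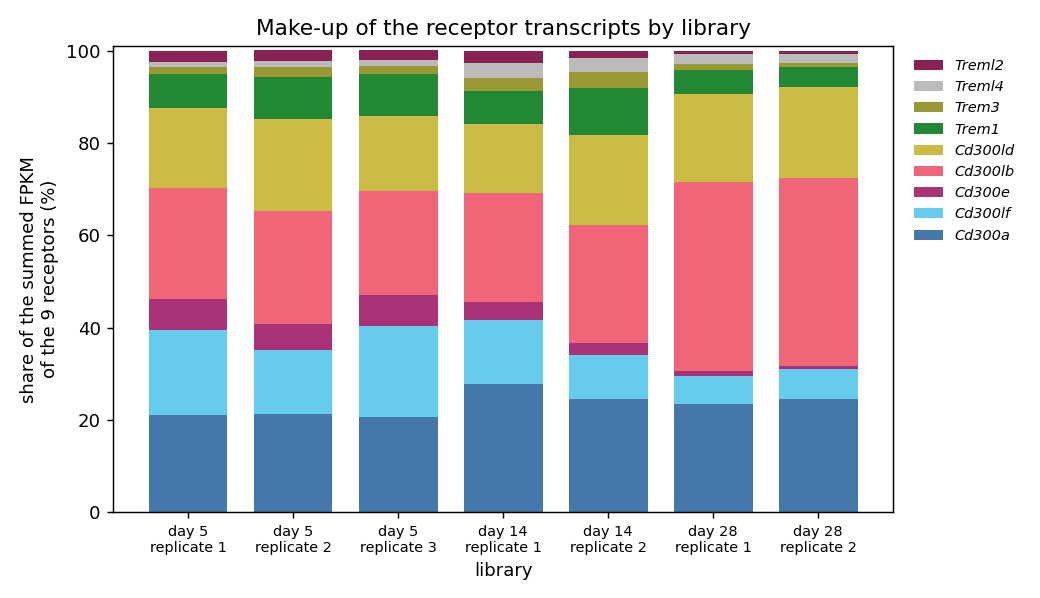
Share of each receptor in the summed FPKM of the 9 (y axis, percent) in each of the 7 libraries (x axis). The *Cd300lb* segment covers 22.7 to 25.4% of the bar in the 5 libraries of days 5 and 14 and 40.7 to 40.9% in the 2 of day 28.

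At day 5 the order of mean levels was *Cd300lb* (64.4 FPKM), *Cd300a* (57.1), *Cd300ld* (48.4), *Cd300lf* (47.0), *Trem1* (23.2), *Cd300e* (17.4), *Treml2* (6.20), *Trem3* (4.51) and *Treml4* (3.49), and only the ranges of *Cd300ld* and *Cd300lf* overlapped between neighbours. At day 14 *Cd300a* (65.7) and *Cd300lb* (61.3) overlapped, as did *Cd300lf* and *Trem1*, and *Cd300e* (8.06), *Trem3* (8.02) and *Treml4* (7.82) could not be ordered. At day 28 *Cd300lb* (88.2) stood above *Cd300a* (51.7) and *Cd300ld* (41.8), and *Trem3* (2.36), *Cd300e* (1.81) and *Treml2* (1.35) overlapped with their neighbours. Of the day 28 pair, replicate 1, which was also the deeper library, was the higher in 9 of 9 receptors. Day 14 replicate 1 was the higher for *Cd300a*, *Cd300lf*, *Cd300e*, *Treml4* and *Treml2*, and it also had more of the classical monocyte markers (542 against 318 FPKM) and of the markers of Schwann cells, fibroblasts and endothelium (169.6 against 60.3 FPKM).

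Profiles were compared as log2(FPKM + 1) centred on each gene's mean, by the root mean square difference over the 7 libraries. Each receptor was set against 12844 other genes. *Cd300lf* was closest to *Fcgr4* (0.159) and *Gm14446* (0.160), and *Cd300e* to *Fcrl5* (0.210) and *Cfb* (0.314). *Trem3* was closest to *Cxcr2* (0.156) and *Hdc* (0.199), *Treml4* to *Il1f9* (0.132) and *Nek2* (0.135), and *Treml2* to *Dhx58* (0.0892) and *Usp18* (0.144). *Trem1* was closest to *Sh3bgrl2* (0.214) and *Stfa2* (0.225), and *Cd300lb* to *Pik3cb* (0.0442) and *Rai14* (0.0512). The nearly flat *Cd300a* was closest to *Nid2* (0.0336) and *Ddx11* (0.0474), and *Cd300ld* to *Prkab1* (0.0498) and *Ndufaf7* (0.0597). The added 1 flattens profiles of genes with few FPKM, so a small difference here is not an equal fold change. Mean FPKM at days 5, 14 and 28 was 0.86, 1.2 and 0.711 for *Nid2*. It was 0.977, 1.14 and 0.715 for *Ddx11*, and 5.86, 3.19 and 0.191 for *Fcrl5*. For scale, *Cd300e* itself varied around its mean by 1.18 and *Cd300a* by 0.142. Among the receptors the closest pairs were *Cd300a* with *Cd300ld* (0.225) and *Cd300lf* with *Treml2* (0.272).

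Of the other CD300, TREM and related genes, 9 were in the table and 5 were tested, and in the edgeR fit 2 of these rose from day 5 to day 28. *Trem2*, the lipid receptor that pairs with DAP12, lies in the same cluster as the 4 TREM genes above and was far more abundant, at 394, 399 and 406 FPKM at day 5, 527 and 533 at day 14, and 493 and 537 at day 28. It rose by 0.38 on the log2 scale (SE 0.11, adjusted p = 0.0429) from day 5 to day 28, a call kept in 6 of 15 other settings and lost without any 1 library of either day. *Treml1*, known from platelets, rose from 0.666 ± 0.318 FPKM (n = 3) to 2.34 ± 1.14 (n = 2; log2 fold change 1.84, SE 0.54, adjusted p = 0.0489), from 11 to 23 fragments at day 5 and 30 and 124 at day 28, a call kept in 8 settings and likewise lost without any 1 library of either day. The platelet markers in the list summed to 1481 to 2122 FPKM at day 5 and 266 to 343 at day 28. That sum was mainly *Pf4*, which fell (-2.61, adjusted p = 0.000541), and *Ppbp* fell too (-2.06, adjusted p = 0.0119). *Itga2b* (-0.07, adjusted p = 0.947) and *Gp1ba* (2.67, adjusted p = 0.0597), at most 0.393 and 0.338 FPKM, were not past the threshold. *Gp9*, at 0 to 12 fragments, was not tested. The part of platelet RNA in the levels of *Treml1* and *Pf4* was not tested.

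The abundant gene listed as *AF251705*, a symbol of the CD300 family that the reference tables used here do not pair with a current name, was at 158 ± 13.5 FPKM at day 5 and 191 ± 29.9 at day 28 (log2 fold change 0.29, adjusted p = 0.206). *Cd300lh* was at 10.8 ± 1.37 and 6.76 ± 0.975 FPKM (log2 fold change -0.68, adjusted p = 0.093), and its value is uncertain, because 81.5% of the stretches of 75 bases in *Cd300ld3*, of which it is a synonym, recur in neighbouring paralogs. *Cd300lg* was at 2.66 ± 0.473 and 3.41 ± 0.204 FPKM (log2 fold change 0.36, adjusted p = 0.355). *Cd300c*, *Pigr*, *Fcamr* and *Faim3* were at 0 to 11 fragments in every library and were not tested.

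The adaptors were abundant throughout. *Tyrobp*, which encodes DAP12, was at 1148 ± 81.8 FPKM on day 5, 1148 ± 47.0 on day 14 and 1022 ± 27.7 on day 28 (log2 fold change day 28 against day 5 -0.16, SE 0.11, adjusted p = 0.39). *Fcer1g*, the Fc receptor gamma chain, fell from 852, 791 and 735 FPKM at day 5 to 582 and 468 at day 28 (-0.58, SE 0.14, adjusted p = 0.0264), with 727 and 615 at day 14. *Hcst*, which encodes DAP10, fell from 40.2 ± 1.98 FPKM to 25.7 ± 3.35 (-0.63, SE 0.18, adjusted p = 0.0474). Both calls were lost without any 1 library of day 5 or day 28.

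Of 21 genes downstream of the adaptors, 2 rose and 6 fell from day 5 to day 28, and 13 were not past the threshold. The Src family kinase *Fyn* rose (log2 fold change 0.64, adjusted p = 0.00555), as did *Malt1*, the protease partner of *Bcl10* (0.83, adjusted p = 0.0277). The Src family kinase *Lyn* fell (-0.62, adjusted p = 0.0116), as did the scaffold *Lcp2*, also called SLP-76 (-0.90, adjusted p = 0.0137), the exchange factors *Vav1* (-0.66, adjusted p = 0.0239) and *Vav3* (-0.67, adjusted p = 0.00757), and *Bcl10* (-0.44, adjusted p = 0.045). *Syk* was at 179 and 145 FPKM (-0.30, SE 0.18, adjusted p = 0.289). The calls of *Fyn* and *Vav3* were kept in 15 of 15 other settings and those of *Malt1*, *Lyn*, *Lcp2*, *Vav1* and *Bcl10* in 8 to 12.

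At day 14 against day 5, *Vav3* alone of these genes was past the threshold (-0.65, adjusted p = 0.0226), and it was not past it without any 1 of the day 5 libraries or without day 14 replicate 2. Between days 14 and 28, none of the 31 adaptor and signalling genes was (edgeR, lowest adjusted p = 0.214), and 1 was past the threshold with DESeq2. At an unadjusted p under 0.05 were 8 of the 31, and 1570 of all 12858 genes tested. The median log2 fold change of the 21 was -0.21 at day 28 against day 5.

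Of the 7 genes that act at inhibitory motifs, *Dok1*, an adaptor protein that dampens kinase signalling, rose from 28.1 to 41.1 FPKM between day 5 and day 28 (0.56, SE 0.12, adjusted p = 0.0183, kept in 9 of 15 settings), and 6 were not past the threshold. *Ptpn6*, which encodes SHP-1, was at 131 and 123 FPKM (-0.08, SE 0.14, adjusted p = 0.738), *Inpp5d*, the lipid phosphatase SHIP-1, at 68.7 and 54.6 (-0.32, SE 0.13, adjusted p = 0.124), and *Csk*, a kinase that restrains Src kinases, at 85.9 and 67.0 (-0.35, SE 0.11, adjusted p = 0.0657).

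**Figure D5:**
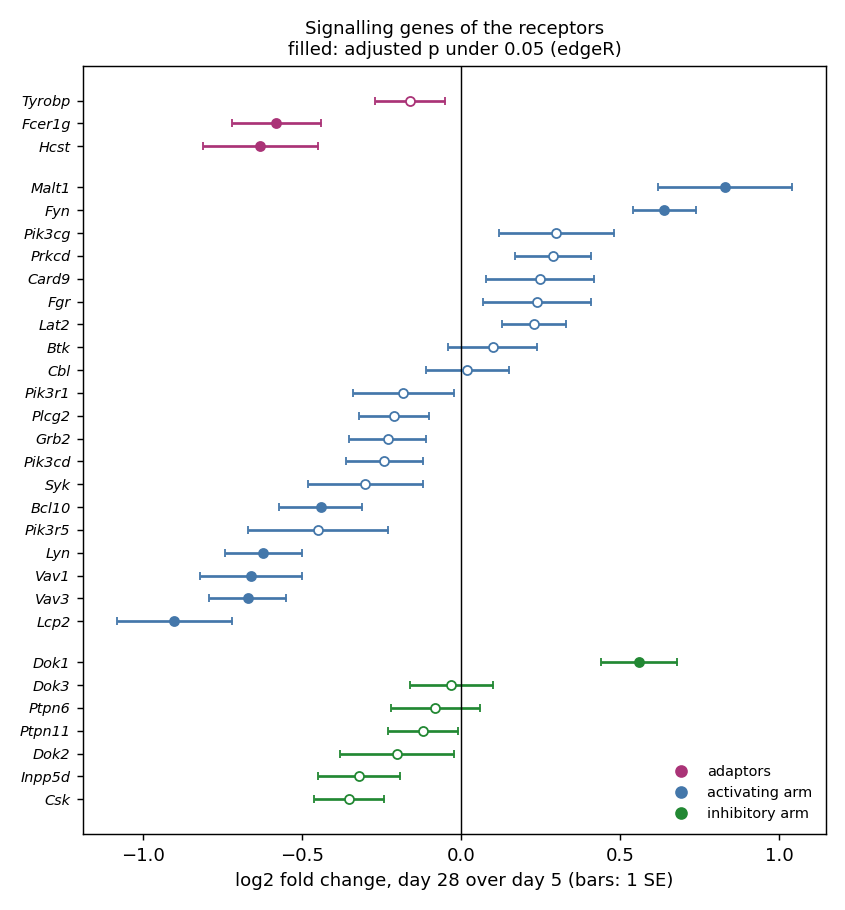
Fitted log2 fold change at day 28 over day 5 (x axis, bars 1 SE on either side) of the 3 adaptors, 20 of the 21 genes of the activating arm and 7 of the inhibitory arm (rows). Filled points have an adjusted p under 0.05 in edgeR. These are 2 adaptors, 7 genes of the activating arm, of which 5 lie to the left of 0, and *Dok1*.

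Genes put forward as ligands of TREM receptors were also measured in the sorted cells. *Pglyrp1*, a peptidoglycan-binding protein and ligand of TREM-1, rose from 1.54, 1.82 and 1.05 FPKM at day 5 to 5.29 in both day 14 libraries (log2 fold change 1.85, SE 0.44, adjusted p = 0.0488), and was at 1.83 and 2.71 at day 28. It rests on 11 to 57 fragments, its call was kept in 4 of 15 other settings and lost without any 1 of the 7 libraries, and it also belongs to the nonclassical monocyte list. *Cd276* (B7-H3), put forward as a ligand of TLT-2, rose from 1.27, 1.81 and 0.963 FPKM at day 5 to 3.13 and 8.79 at day 14 (2.17, SE 0.42, adjusted p = 0.0273, kept in 6 settings) and 10.6 and 6.60 at day 28 (2.70, SE 0.42, adjusted p = 0.00462, kept in 14). *Treml2* was lower at day 28 than at day 5, and *Cd276* was higher, but in different steps. From day 5 to day 14, when *Cd276* rose, the *Treml2* libraries overlapped (-0.19). From day 14 to day 28, *Treml2* was lower (-1.98) and the *Cd276* libraries overlapped (0.53, adjusted p = 0.663, edgeR). *Hmgb1*, at 66.6 and 70.7 FPKM on days 5 and 28, *Cd177*, at 1.45 and 1.18, and *Hspa1a*, at 71.2 ± 55.3 and 151 ± 19.6, were not past the threshold (adjusted p = 0.606, 0.604 and 0.157).

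Other paired receptors of myeloid cells were given by a list of 31 genes, of which 29 were in the table and 27 tested. From day 5 to day 28, 5 rose, 2 fell and 20 were not past the threshold. The sialic acid receptor *Cd33* rose from 7.90, 9.92 and 6.98 FPKM to 21.2 and 18.0 (1.27, SE 0.17, adjusted p = 0.00267, kept in 15 of 15 settings), and it was at 22.4 and 17.4 at day 14 (1.27, adjusted p = 0.0113). *Clec5a*, a lectin that pairs with DAP12, rose by 1.25 on the log2 scale (adjusted p = 0.0207), *Lilra5* by 1.80 (adjusted p = 0.00665), *Slamf8* by 1.25 (adjusted p = 0.00924) and the inhibitory *Cd200r1* by 0.62 (adjusted p = 0.0253). The inhibitory *Lilrb3* fell (-0.46, adjusted p = 0.0286), as did *Sirpb1a* (-0.48, adjusted p = 0.0321), and both calls were lost without any 1 library of day 5 or day 28. Without day 28 replicate 1, *Lilra5*, *Clec5a*, *Slamf8* and *Cd200r1* were not past the threshold either, nor was *Slamf8* without day 28 replicate 2, *Clec5a* without day 5 replicate 1 or 3, or *Cd200r1* without day 5 replicate 1 or 2. The most abundant of the list, *Lilrb4*, *Gp49a* and *Sirpa*, were at 614, 526 and 290.4 FPKM at day 28 and were not past the threshold (adjusted p = 0.74, 0.985 and 0.207). *Clec5a* shares its adaptor with *Trem1*, but the 2 differed in direction between day 5 and day 28, by values of 1.25 and -1.12.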

How the data were processed

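Macrophages sorted from the injured nerve were profiled by RNASeq in 7 libraries. Per the submitters' processing notes, single-end reads were trimmed with cutadapt 1.8, mapped to mm10 with TopHat2 2.0.13 and quantified with Cuffdiff 2.2.1. The authors deposited, for 23361 genes, estimated counts of fragments before scaling and FPKM, which is scaled for transcript length and library size. Whether counting used strand, and how reads that map to several genes were shared, is not given in the sources used here. Columns with the scaled fragments were not used.

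The 9 receptors and all gene lists were chosen with earlier results of these data known. Libraries were grouped by the time point in their labels. The estimated counts, of which 0.947% were not whole, were rounded, and the quasi-likelihood F test of edgeR 4.0.16 (R 4.3.3) was used (TMM scaling, its filter on low counts by time point, 1 fit of all 7 libraries with time point as the only factor, 4 residual degrees of freedom, Benjamini-Hochberg adjustment over the 12858 genes tested). The scripts were tested on simulated data. A gene was past the threshold at an adjusted p under 0.05. Fold changes are later over earlier, with their standard error (SE), and mean values of each time point are FPKM ± SD. No p is given for a receptor, since the receptors were chosen with their values known. Library totals ran from 18027190 to 35247116 fragments. Exact Poisson intervals (95%) and the floor of 3 fragments cover counting error only.

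Named were the 9 receptors, all relatives, adaptors and ligands in the table, every other listed gene past the threshold in at least 1 comparison (otherwise up to 3 with the highest mean FPKM), and the 2 genes most like each receptor. Likeness was the root mean square difference between profiles of log2(FPKM + 1), each centred on its mean over the 7 libraries. The values of 1 listed signalling gene are not reported here, though it is counted with its list. Markers named singly beside a result were chosen after their values were seen.

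Alternatives were DESeq2 1.42.0, RLE size factors, no expression filter, limma 3.58.1 on log2 FPKM with a pseudocount of 1 or 0.1, a fit of only the time points compared, a block by replicate number, and leaving out each library. Positions are from GENCODE genes on GRCm38, the assembly that UCSC calls mm10, and promoter sequences from RefSeq (GRCm38.p6), both matched by symbol. Tables and plots were made with Python 3.11.15, numpy 2.4.6, pandas 2.3.3, scipy 1.17.1 and matplotlib 3.10.9.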

Additional observations from a re-analysis of the deposited data

How the results depend on the processing

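At day 28 against day 5, *Cd300lf*, *Cd300e*, *Trem1* and *Treml2* were past the threshold under all 15 alternatives and *Cd300lb* under 9. *Treml4* at day 14 against day 5 was past it under 11 and *Treml2* at day 28 against day 14 under 6. The sign of the fitted fold change turned, in 1 alternative each, for *Cd300ld*, *Trem1* and *Treml2* at day 14 against day 5 and for *Cd300ld* at day 28 against day 14, none of them past the threshold. The relatives, adaptors, signalling genes, ligands and paired receptors past the threshold gave 375 recomputed values. Of these, 259 stayed past the threshold and 116 kept their direction without passing. The calls of cell type markers other than *Pglyrp1* were not followed gene by gene through the alternatives. Of the 9 receptors, the number past the threshold at day 14 against day 5, 1 as reported, became 3 with DESeq2, 3 without the expression filter, 2 in a fit on these time points alone and 0 to 3 with 1 library left out. Between days 14 and 28, 1 as reported, it became 6 with DESeq2, 6 without the filter, 0 in both limma fits, 0 in the fit on these time points and 0 to 5 with 1 library left out. Of the 31 signalling genes, the 1 past the threshold at day 14 against day 5 became 3 with DESeq2, 3 without the filter and 0 to 6 with 1 library left out. At day 28 against day 14, 0 became 1 with DESeq2, 1 without the filter and up to 2 without a library, and at day 28 against day 5 the 11 became 2 to 12 with 1 library left out. Of the 27 paired receptors tested, the 1 past the threshold at day 14 against day 5 became 5 with DESeq2, 5 without the filter (28 tested) and up to 7 without a library. At day 28 against day 14 the 0 (1 gene at an unadjusted p under 0.05, 0 with DESeq2) became 1 without day 14 replicate 2, and at day 28 against day 5 the 7 became 12 without the filter, 11 in the fit on these time points and 2 to 11 without a library. Over all genes, the 614 at day 14 against day 5 became 1392 with DESeq2, 1429 without the filter, 252 and 277 in the limma fits with a pseudocount of 1 and 0.1, 315 in the fit on these time points and 52 to 1728 without a library. The 8 at day 28 against day 14 became 346 with DESeq2, 390 without the filter, 0 in both limma fits, 0 in the fit on these time points and 0 to 629 without a library, and the 1960 at day 28 against day 5 became 452 to 2746 without a library. The causes of these moves were not tested.

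Libraries of different days share only a replicate number. The correlation of the deviations of same-numbered libraries over 7556 genes was 0.402 and 0.0472 between days 14 and 5, -0.146 between days 28 and 14, and -0.0424 and 0.0438 between days 28 and 5. With the replicate block, 0 receptors passed at day 14 against day 5 and 0 at day 28 against day 14. The signalling genes past the threshold numbered 0 at day 14 against day 5 and 6 at day 28 against day 5 under the block, the paired receptors 0 and 3, and all genes 6 at day 14 against day 5, 0 at day 28 against day 14 and 735 at day 28 against day 5. A block with the day 28 numbers swapped, chosen after seeing the data, gave 3 receptors at day 28 against day 14, 0 signalling genes at day 14 against day 5, and 357 and 63 genes in all at day 14 against day 5 and at day 28 against day 14. The block leaves 2 residual degrees of freedom. With 2 libraries at days 14 and 28, a fit without 1 of them assumes that the lone library varied like the other groups. *Trem3*, at 28 to 165 fragments, was the receptor limited most by depth.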
